A study of Mus musculus and Rattus norvegicus with 32 samples.

Results

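The genes described here are those of the major histocompatibility complex (MHC) and of the pathway that loads its molecules with peptides. They were taken by name, as every row whose symbol begins with H2- in the mouse tables or RT1- in the rat table, together with B2m, Tap1, Tap2, Tapbp, Psmb8, Psmb9, Psmb10, Psme1, Psme2, Nlrc5, Ciita, Cd74 and Erap1. This gave 58 of the 55487 mouse genes and 44 of the 32883 rat genes. The rule uses names and no expression value, but it was chosen with earlier results of these data known. Of the mouse members, 32 were class I genes, 12 were class II genes and 13 were genes of peptide processing, loading or transcriptional control. The remaining member, H2-Ke6 (also named Hsd17b8), encodes a steroid dehydrogenase and carries the H2 prefix only through its position, so it was kept apart from both classes. Of the rat members, 21 were class I genes, 10 were class II genes and 13 were the named partners.

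RNA was sequenced from 32 libraries in 4 separate experiments with 4 libraries per group. The hearts of 1-month-old C57BL/6 mice were labelled METTL5-KO, in which METTL5 (an N6-methyladenosine methyltransferase of ribosomal RNA) was knocked out in the whole animal, or control. The hearts of 3-month-old C57BL/6 mice were labelled METTL5-cKO, in which a Cre recombinase driven by the Myh6 promoter (alpha myosin heavy chain, unrelated to the MHC genes) acts on floxed METTL5 in cardiomyocytes, or control. A further set of 3-month-old METTL5-cKO and control hearts was collected 4 weeks after transverse aortic constriction (TAC), a surgical narrowing of the aorta that loads the left ventricle with pressure, so both of its groups had surgery. In the fourth experiment, neonatal rat ventricular cardiomyocytes (NRVMs) of Sprague Dawley rats at postnatal day 2 received an adenovirus that carries METTL5 (AdMETTL5) or green fluorescent protein (AdGFP), and both groups were treated with 20 μM phenylephrine (PE), an alpha-adrenergic agonist, for 24 h. The controls of the mouse experiments were littermates, and the sources used here do not say which alleles they carried. The labels do not say whether libraries of a group came from separate animals or cultures, so each p-value measures the spread between these libraries only.

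MHC class I molecules pair a variable heavy chain with the invariant light chain B2m and show peptides from inside the cell to CD8 T cells and natural killer cells. The peptides are cut by the proteasome, which takes up the inducible subunits Psmb8, Psmb9 and Psmb10 and the activator Psme1 and Psme2 during inflammation, are carried into the endoplasmic reticulum by Tap1 and Tap2, trimmed by Erap1 and loaded with the help of tapasin (Tapbp). Class II molecules pair an alpha and a beta chain, are escorted by the invariant chain Cd74, exchange peptides with the help of the DM chains and are found chiefly on antigen-presenting cells such as macrophages, dendritic cells and B cells. Nlrc5 is the transactivator of class I genes and Ciita that of class II genes. In heart tissue, endothelial cells are known for high class I expression, and resident macrophages and dendritic cells for class II expression.

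Total counts lay between 19899033 and 21804907 per mouse library and between 14324700 and 18085339 per rat library, and AdMETTL5 libraries were shallower (14324700 to 14642431) than AdGFP libraries (17344430 to 18085339). Levels are given as CPM, the counts of a gene per 1000000 counts of its library, on library sizes scaled within each experiment. Levels were not tested between experiments. Only the interaction test described below joined the 3-month and TAC experiments, with library sizes scaled over both. Mettl5 itself lay between 4.51 and 5.94 CPM in the 1-month control libraries and between 5.27 and 6.71 CPM in those labelled METTL5-KO, between 6.87 and 8.12 and between 5.61 and 7.28 CPM in the 3-month control and METTL5-cKO libraries, and between 5.62 and 7.14 and between 5.61 and 7.32 CPM in the TAC control and METTL5-cKO libraries. These ranges overlapped in each mouse experiment. The count covers the whole gene and all cells of the heart, so it does not check the removal of single exons, and the mouse genotypes are given here as labelled. Rat Mettl5 lay between 16.2 and 18.0 CPM with AdGFP and between 19.1 and 23.0 CPM with AdMETTL5, and how far reads of the human METTL5 sequence in the virus map to the rat gene was not tested.

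On GRCm38, 50 of the 58 mouse members lie on chromosome 17 between positions 33915899 and 37483552, among them all 32 class I and all 12 class II genes (GENCODE M21). Promoters of members are shown because class I and class II genes share a promoter module whose Y box, an inverted CCAAT, binds the trimeric factor NF-Y, while interferon response elements mark many genes of the class I pathway. RefSeq promoter windows (GRCm38.p6, from 250 bases before to 50 bases after the start) were given for 41 members. The letters ATTGG were found on either strand in 20 of 23 class I genes (87.0%) and in 8 of 8 class II genes, against 41.1% of 27025 genes with a window, and in 4 of 9 processing genes. The bases just before the start are printed for H2-K1, H2-Q7, H2-Aa, H2-Eb1 and B2m, whose levels are described below, and for H2-Q6 and H2-T22, which show the letters in both orientations, all chosen after the sequences had been seen and with no annotated exon in the printed bases. They run 5′ to 3′, with ATTGG or its reverse complement CCAAT, and in B2m also an interferon response element core (GAAA, any 2 bases, GAAA), in capitals.
H2-K1 (class I, minus strand, chr17:34000348-34000457): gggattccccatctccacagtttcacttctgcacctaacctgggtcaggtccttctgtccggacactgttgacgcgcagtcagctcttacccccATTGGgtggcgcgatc
H2-Q6 (class I, plus strand, chr17:35424740-35424849): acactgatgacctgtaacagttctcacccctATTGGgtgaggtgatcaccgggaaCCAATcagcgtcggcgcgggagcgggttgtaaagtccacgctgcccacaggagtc
H2-Q7 (class I, plus strand, chr17:35439045-35439154): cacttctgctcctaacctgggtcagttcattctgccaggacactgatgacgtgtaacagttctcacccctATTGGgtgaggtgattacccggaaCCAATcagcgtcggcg
H2-T22 (class I, minus strand, chr17:36042748-36042852): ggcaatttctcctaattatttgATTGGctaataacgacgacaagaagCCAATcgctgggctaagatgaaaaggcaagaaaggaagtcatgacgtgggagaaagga
H2-Aa (class II, minus strand, chr17:34287824-34287933): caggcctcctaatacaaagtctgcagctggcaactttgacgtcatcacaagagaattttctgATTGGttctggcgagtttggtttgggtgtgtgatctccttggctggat
H2-Eb1 (class II, plus strand, chr17:34305757-34305866): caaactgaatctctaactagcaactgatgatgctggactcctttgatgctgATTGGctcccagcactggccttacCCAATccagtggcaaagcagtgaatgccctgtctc
B2m (light chain, plus strand, chr2:122147537-122147677): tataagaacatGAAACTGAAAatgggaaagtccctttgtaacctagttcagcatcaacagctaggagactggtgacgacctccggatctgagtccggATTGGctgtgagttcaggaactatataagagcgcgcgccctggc

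The printed class I sequences of H2-Q6, H2-Q7 and H2-T22 and the class II sequence of H2-Eb1 hold both orientations of the Y box letters. The window of H2-K1 holds both as well, with CCAAT from 8 bases after the start, outside its printed bases. The forward letters with their reverse complement 20 to 30 bases further on were found in 8 of 23 class I genes, 1 of 8 class II genes and 0 of 9 processing genes, against 0.744% of all genes with a window, and this spacing was chosen after the sequences had been seen. The interferon response element core, searched on both strands, occurred in 2 of 23 class I genes (H2-T22 and H2-T23), 0 of 8 class II genes and 3 of 9 processing genes (B2m, Erap1 and Psme1), against 3.99% of all genes. TTCNNNGAA, the core of the gamma-interferon activated site, occurred in 2 of 23 class I genes, 1 of 8 class II genes (H2-DMb2) and 1 of 9 processing genes (Psmb8), against 9.55% of all genes. These matches describe letters in the windows and not bound sites. H2-T24 and H2-K2 had no window.

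Class I genes are close copies of each other, and the counts can be split between them in ways the sources do not state. Among the 17 class I genes tested after TAC, between 0.576% and 36.5% of the 50-base words of a gene's transcripts (median 16.1%) also occurred in another gene, and in 12 of them the share was over 10%. For class II the median share was 0% and the highest 24.8%, that of H2-DMb2, followed by 22.7% for its neighbour H2-DMb1. Values of single class I genes are therefore uncertain where their sequence is shared, and a fit in which the counts of all class I genes were summed is given beside them. B2m, H2-Ab1 and Nlrc5 shared no such word with another gene.

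Levels in the mouse heart are given per kilobase of exon so that genes can be compared, and B2m stood highest in each experiment. In 1-month control hearts B2m stood at 770 ± 133 CPM per kb, followed by H2-D1 at 96.0 ± 24.3, H2-K1 at 93.6 ± 33.8 and Cd74 at 59.0 ± 18.0 CPM per kb (SD, n = 4). H2-D1 and H2-K1 did not differ beyond their spread. The class II chains were lower, at 11.9 ± 4.16 CPM per kb for H2-Ab1, 10.2 ± 3.70 for H2-Eb1 and 8.60 ± 3.03 for H2-Aa, and these neighbours did not differ beyond their spread. In 3-month control hearts B2m stood at 283 ± 41.4, Cd74 at 51.0 ± 9.84, H2-D1 at 48.6 ± 5.92 and H2-K1 at 32.9 ± 5.22 CPM per kb. In TAC control hearts these were 350 ± 70.5, 68.8 ± 19.2, 53.6 ± 7.83 and 35.0 ± 6.49 CPM per kb, with Cd74 above H2-D1 by less than the spread. H2-Ea, the class II alpha chain annotated as a polymorphic pseudogene, had 0 counts in all 24 mouse libraries. Between 12 and 13 of the 32 class I genes in each mouse experiment, most of them of the H2-M group, were also at 0 in every library.

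**Figure D1:**
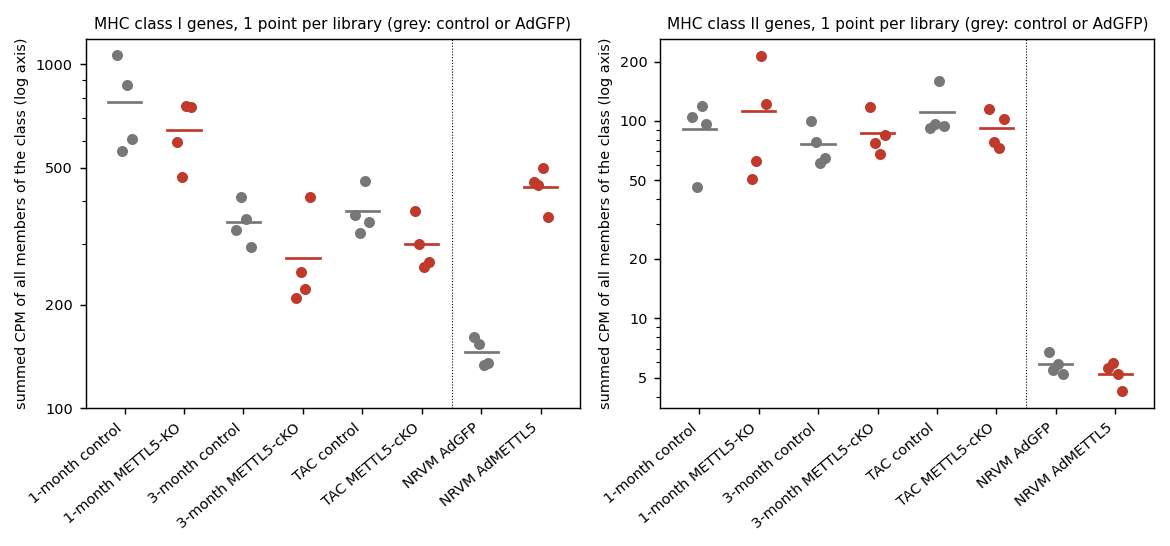
Summed CPM of all class I members (left) and all class II members (right) in each of the 32 libraries on log axes, grouped by experiment, with a bar at the group mean; grey marks control or AdGFP and red marks METTL5-KO, METTL5-cKO or AdMETTL5. The AdMETTL5 libraries lie between 360 and 501 CPM for class I, all above the AdGFP libraries at 134 to 161 CPM, whereas the groups overlap at every other position in both panels.

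At 1 month, the comparison asked whether loss of METTL5 alters the unstressed young heart, and no member passed the test. Class I genes lay lower and class II genes higher on average in the hearts labelled METTL5-KO, but within the spread of the libraries. The summed class I level was 1065, 558, 869 and 608 CPM in control libraries 1 to 4 and 594, 472, 758 and 752 CPM in METTL5-KO libraries 1 to 4. Control library 1 was the highest of all and METTL5-KO library 2 the lowest, and the remaining libraries of the groups overlapped. Of 18 class I genes tested, 17 had a log2 fold change below 0 (51.4% of all genes tested did), with a median of -0.29 (all genes -0.01), and control library 1 was the highest of the 8 libraries for 15 of them. Without that library the median was -0.09, and without METTL5-KO library 2, which was the lowest for 13 of the 18 genes, it was -0.15.

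H2-K1, a classical class I heavy chain, had 406, 191, 296 and 206 CPM in the control libraries and 201, 158, 272 and 275 CPM in the METTL5-KO libraries. The groups overlapped, with a log2 fold change of -0.28 (SE 0.268, edgeR adjusted p = 0.973). H2-D1, the other classical heavy chain of this strain, had 318, 182, 281 and 209 CPM against 196, 163, 234 and 248 CPM, a log2 fold change of -0.24 (SE 0.202, edgeR adjusted p = 0.973). B2m had 702, 562, 806 and 578 CPM in control and 516, 490, 695 and 827 CPM in METTL5-KO libraries. Its log2 fold change of -0.07 (SE 0.199, edgeR adjusted p = 0.981) was near 0, and its highest library was METTL5-KO library 4. Nlrc5, the class I transactivator, had 16.4, 13.1, 17.4 and 10.1 CPM against 14.01, 12.7, 20.0 and 17.9 CPM, with overlapping groups (log2 fold change 0.18, SE 0.200, edgeR adjusted p = 0.973).

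Class II genes at 1 month were set by single libraries. The summed class II level was 105, 46.1, 119 and 96.3 CPM in the control libraries and 50.8, 62.7, 213 and 122 CPM in the METTL5-KO libraries. METTL5-KO library 3 was the highest for 6 of the 7 class II genes tested and control library 2 the lowest for 5. The median log2 fold change was 0.32 and turned to -0.09 without METTL5-KO library 3. H2-Aa had 38.4, 15.97, 41.7 and 34.6 CPM in control and 17.4, 23.5, 79.7 and 44.3 CPM in METTL5-KO libraries (log2 fold change 0.34, SE 0.463, edgeR adjusted p = 0.975). H2-Ab1, a beta chain, had 33.5, 16.3, 42.0 and 30.4 CPM against 13.8, 20.4, 67.5 and 40.6 CPM (log2 fold change 0.22, SE 0.465, edgeR adjusted p = 0.975). In both genes METTL5-KO library 3 was the highest of all. H2-Eb1, a beta chain of the second class II pair, had 23.6, 9.13, 23.9 and 22.9 CPM against 12.9, 11.9, 50.5 and 26.8 CPM (0.36, SE 0.474, edgeR adjusted p = 0.975), and Cd74 had 108, 54.6, 122 and 112 CPM against 57.5, 77.2, 224 and 141 CPM (0.33, SE 0.411, edgeR adjusted p = 0.973). The groups overlapped in each of them. Ciita, which is needed for class II transcription, was near 1 CPM, with 1.61, 0.428, 1.27 and 0.576 CPM in control and 1.05, 0.846, 2.25 and 1.51 CPM in METTL5-KO libraries (log2 fold change 0.54, SE 0.452, edgeR adjusted p = 0.973).

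In all, 0 of the 39 members tested at 1 month were called by edgeR at an adjusted p under 0.05, against 0.00612% of all genes (1 of 16329), and DESeq2 called 0 as well. At an unadjusted p under 0.05 there was 1 member, Psme1 (log2 fold change 0.37, SE 0.162, adjusted p = 0.973), against 4.57% of all genes. Psme1 had 53.0, 91.1, 67.8 and 67.9 CPM in control and 84.0, 84.7, 89.8 and 104 CPM in METTL5-KO libraries, with overlap through control library 2. With the class I counts summed before the fit, the log2 fold change was -0.27 (edgeR adjusted p = 0.973), and with the class II counts summed it was 0.29 (edgeR adjusted p = 0.975). No gene of the 9 cell type marker lists or of the 6 further pathway lists was called at 1 month. In bulk tissue, fewer cells of a type and less RNA per cell cannot be told apart, here and in all comparisons that follow.

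At 3 months, the METTL5-cKO heart was compared with control before any surgical load. All 17 class I genes tested lay lower on average in the METTL5-cKO hearts (49.7% of all genes tested had a log2 fold change below 0), with a median log2 fold change of -0.32 (all genes 0.00), and none passed the test. The summed class I level was 329, 411, 354 and 294 CPM in the control libraries and 210, 249, 221 and 411 CPM in the METTL5-cKO libraries. METTL5-cKO libraries 1, 2 and 3 were below every control library, whereas METTL5-cKO library 4 was level with the highest control. That library was the highest METTL5-cKO library for 15 of the 17 genes, and without it the median was -0.46.

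H2-D1 had 116, 148, 122 and 115 CPM in control and 79.8, 90.1, 87.1 and 145 CPM in METTL5-cKO libraries (log2 fold change -0.32, SE 0.184, edgeR adjusted p = 0.840). H2-K1 had 98.8, 115, 94.7 and 78.1 CPM against 59.2, 75.0, 60.1 and 116 CPM (log2 fold change -0.32, SE 0.215, edgeR adjusted p = 0.892). In both genes 3 METTL5-cKO libraries were below all controls and the remaining library was not. B2m had the same layout, with 226, 296, 228 and 222 CPM in control and 143, 173, 174 and 301 CPM in METTL5-cKO libraries (log2 fold change -0.30, SE 0.215, edgeR adjusted p = 0.913). Nlrc5 had 8.26, 4.77, 5.85 and 4.73 CPM against 2.85, 3.56, 2.16 and 6.14 CPM, a log2 fold change of -0.69 (SE 0.311, edgeR adjusted p = 0.716) with METTL5-cKO library 4 again the highest of its group.

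Class II genes at 3 months lay higher on average in the METTL5-cKO hearts, within the spread of the libraries, and the classes were not tested against each other. The summed class II level was 100, 78.6, 60.9 and 65.0 CPM in the control libraries and 117, 77.6, 67.6 and 84.5 CPM in the METTL5-cKO libraries, and the median log2 fold change over 7 genes was 0.18. Without METTL5-cKO library 1 it was -0.02. H2-Aa had 37.5, 27.5, 20.9 and 24.5 CPM in control and 42.3, 27.9, 24.6 and 31.5 CPM in METTL5-cKO libraries (log2 fold change 0.19, SE 0.207), and H2-Ab1 had 30.1, 25.9, 20.6 and 21.6 CPM against 37.7, 24.7, 21.2 and 26.9 CPM (0.17, SE 0.186). Library 1 was the highest of both groups. H2-Eb1 had 24.8, 16.9, 13.3 and 14.2 CPM against 28.7, 18.1, 15.3 and 18.3 CPM (0.22, SE 0.238), Cd74 had 103, 95.5, 67.6 and 76.2 CPM against 116, 88.1, 83.7 and 94.8 CPM (0.16, SE 0.154), and Ciita had 0.979, 1.38, 1.09 and 1.32 CPM against 1.76, 1.41, 0.899 and 1.57 CPM (0.24, SE 0.233). All of these groups overlapped, with edgeR adjusted p between 0.954 and 0.973. Of the class II genes the peptide exchange chain H2-DMa had the smallest p, with 3.31, 2.46, 1.89 and 1.87 CPM against 3.66, 2.95, 2.61 and 3.71 CPM (log2 fold change 0.44, SE 0.215, edgeR adjusted p = 0.743).

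Of the 38 members tested at 3 months, edgeR called 0 at an adjusted p under 0.05, against 0.0732% of all genes (12 of 16391), and DESeq2 called 0. At an unadjusted p under 0.05 there was 1 member, the peptide trimmer Erap1 (log2 fold change -0.35, SE 0.1204, adjusted p = 0.561), against 7.05% of all genes. Erap1 had 30.1, 27.5, 37.4 and 26.9 CPM in control and 26.9, 23.0, 22.7 and 23.1 CPM in METTL5-cKO libraries, which met at the lowest control value. The summed class I counts gave a log2 fold change of -0.35 (edgeR adjusted p = 0.865) and the summed class II counts 0.19 (edgeR adjusted p = 0.969). Summed endothelial markers lay between 496 and 781 CPM in control and between 390 and 591 CPM in METTL5-cKO libraries, with 0 of 6 called and a median log2 fold change of -0.43, and macrophage markers between 93.5 and 118 and between 116 and 161 CPM, with 0 of 9 called. Fibroblast markers lay between 299 and 401 CPM in control and between 396 and 500 CPM in METTL5-cKO libraries, with 0 of 5 called and a median log2 fold change of 0.52. The part of these markers in the class I and class II values was not tested.

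**Figure D2:**
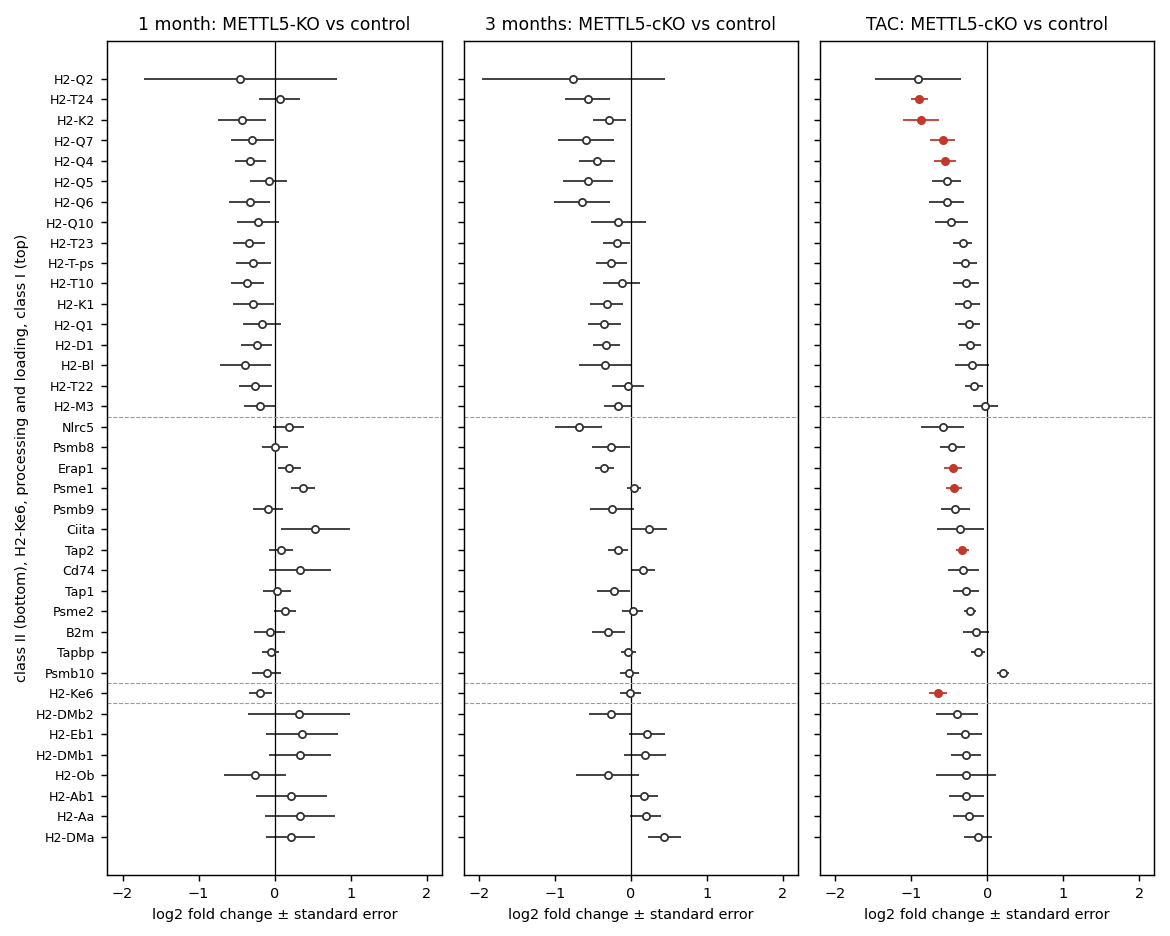
Log2 fold change (horizontal axis) with its standard error for the 38 mouse members tested after TAC, in the 1-month, 3-month and TAC comparisons, with class II genes at the bottom, H2-Ke6 and processing genes in the middle and class I genes at the top; filled red points have an adjusted p under 0.05 (H2-M5, tested at 1 month only, is not drawn). All 17 class I genes lie left of 0 at 3 months and after TAC, class II genes lie on either side at 1 and 3 months, and the 8 filled points are all in the TAC panel.

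After TAC, some class I genes and some genes of peptide supply were lower in the METTL5-cKO hearts, and no class II gene was called. The class I genes H2-T24, H2-Q4, H2-K2 and H2-Q7 fell, as did Psme1, Erap1 and Tap2 among the processing genes, and H2-Ke6 outside both classes. These 4 of 17 class I genes, 0 of 7 class II genes, 3 of 13 processing genes and H2-Ke6 make 8 of 38 members called, all lower, against 12.7% of all genes called in either direction and 6.10% called lower. None of the 8 passed a log2 fold change of 1 in size, whereas 2.90% of all genes did so with an adjusted p under 0.05. At an unadjusted p under 0.05 there were 7 class I, 0 class II and 6 processing genes, against 31.0% of all genes. The groups did not overlap in 4 class I and 3 processing genes, against 9.16% of all genes apart in the lower direction. DESeq2 called 4 class I, 0 class II and 3 processing genes. The share of all genes that DESeq2 called was not counted, here or at 1 and 3 months, so its counts have no background beside them.

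H2-T24, a nonclassical class I gene at chr17:36005695-36020560, had 5.11, 5.79, 4.68 and 4.75 CPM in the TAC control libraries and 2.76, 2.69, 2.55 and 2.95 CPM in the METTL5-cKO libraries. The groups were far apart and the libraries within each close together. Its log2 fold change was -0.89 (SE 0.115, edgeR adjusted p = 0.00561, exact two-sided permutation p = 0.0286, the smallest that 70 labellings allow). Under all 13 alternative analyses it kept its direction and stayed under the threshold, with adjusted p between 3.53e-05 and 0.0231. Only 3.17% of its 50-base words occur in another gene. In the other experiments the same gene was not called, with a log2 fold change of 0.07 (SE 0.269) at 1 month and -0.57 (SE 0.296) at 3 months, where control libraries ran from 3.20 to 8.77 CPM.

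H2-Q4, a class I gene of the Q region, had 30.7, 25.9, 38.9 and 30.3 CPM in control and 26.3, 21.0, 19.6 and 18.8 CPM in METTL5-cKO libraries, so that METTL5-cKO library 1 just overlapped the lowest control (log2 fold change -0.55, SE 0.143, edgeR adjusted p = 0.0363). Its exons overlap those of Gm11131 on the other strand. H2-Q7, a neighbour in the same region, had 17.4, 16, 22.7 and 16.3 CPM against 14.95, 12.6, 11.4 and 9.14 CPM (log2 fold change -0.59, SE 0.162, edgeR adjusted p = 0.0437), without overlap. H2-K2, annotated as a transcribed pseudogene next to H2-K1, had 3.32, 3.40, 6.66 and 3.88 CPM against 2.32, 2.32, 1.98 and 2.80 CPM (log2 fold change -0.87, SE 0.237, edgeR adjusted p = 0.0418). The high value belonged to control library 3, without which the log2 fold change was -0.58. These calls were close to the threshold. H2-Q4 lost its call without control library 1, 3 or 4 or METTL5-cKO library 2 or 3 (edgeR adjusted p 0.0645 to 0.100), H2-Q7 without any control library or METTL5-cKO library 2 or 3 (0.0726 to 0.103) and H2-K2 without control library 2, 3 or 4 or METTL5-cKO library 1, 2 or 3 (0.0558 to 0.107). All 3 also lost it with library size alone (edgeR adjusted p of 0.103 for H2-Q4, 0.127 for H2-Q7 and 0.0578 for H2-K2) and without a filter on low counts (0.0764, 0.0946 and 0.0851).

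The classical heavy chains and B2m were not called after TAC. H2-K1 had 102, 83.6, 129 and 96.5 CPM in control and 112, 83.0, 74.7 and 73.5 CPM in METTL5-cKO libraries (log2 fold change -0.26, SE 0.164, edgeR adjusted p = 0.313), and H2-D1 had 133, 123, 168 and 128 CPM against 149, 119, 96.6 and 108 CPM (-0.23, SE 0.146, edgeR adjusted p = 0.328). B2m had 314, 258, 381 and 250 CPM against 346, 284, 229 and 227 CPM (-0.15, SE 0.172, edgeR adjusted p = 0.601). In these 3 genes METTL5-cKO library 1 was among the higher libraries, and control library 3 was the highest of all 8. Control library 3 was the highest for 14 of the 17 class I genes. All 17 class I genes tested had a log2 fold change below 0 (50.6% of all genes), with a median of -0.32, which was -0.24 without control library 3 and -0.42 without METTL5-cKO library 1. The summed class I level was 364, 323, 458 and 347 CPM in control and 375, 300, 258 and 266 CPM in METTL5-cKO libraries, and the fit on summed counts gave a log2 fold change of -0.32 that missed the threshold (edgeR adjusted p = 0.174).

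Among the genes of peptide supply, Psme1, a subunit of the proteasome activator, had 84.7, 78.1, 81.9 and 81.2 CPM in TAC control and 54.8, 56.1, 55.1 and 75.1 CPM in METTL5-cKO libraries. All METTL5-cKO libraries were below the controls, library 4 least so (log2 fold change -0.43, SE 0.108, edgeR adjusted p = 0.0319). Erap1 had 24.6, 28.8, 34.2 and 27.7 CPM against 21.4, 18.5, 21.3 and 23.2 CPM (-0.45, SE 0.112, edgeR adjusted p = 0.0325), and Tap2 had 20.8, 20.8, 23.8 and 19.3 CPM against 16.6, 16.3, 16.5 and 18.1 CPM (-0.33, SE 0.0835, edgeR adjusted p = 0.0349). Neither had overlapping groups. Exons on the other strand overlap all 3 genes, those of Emc9 for Psme1, of Cast for Erap1 and of Gm15821 and Gm20496 for Tap2. The strand setting of the counts is not given in the sources, so reads of these neighbours may be included. The partner subunits did not pass, with log2 fold changes of -0.28 for Tap1 (adjusted p = 0.289), -0.22 for Psme2 (0.100), -0.46 for Psmb8 (0.0865), -0.42 for Psmb9 (0.168) and -0.12 for Tapbp (0.405) from edgeR. Psmb10 alone lay higher in the METTL5-cKO hearts, with 24.4, 27.0, 29.2 and 24.9 CPM in control and 30.6, 30.9, 29.0 and 31.3 CPM in METTL5-cKO libraries (0.21, SE 0.0778, edgeR adjusted p = 0.106). Nlrc5 had 4.86, 3.94, 5.72 and 3.88 CPM against 4.69, 2.60, 3.31 and 1.598 CPM (-0.58, SE 0.282, edgeR adjusted p = 0.192). Without METTL5-cKO library 4 all 3 stayed called, Psme1 at an adjusted p of 0.000635. Psme1 and Tap2 lost their call without any one of the other libraries (edgeR adjusted p 0.0644 to 0.0979 and 0.0622 to 0.106), and Erap1 without control library 2, 3 or 4 or METTL5-cKO library 1, 2 or 3 (0.0712 to 0.0977). Without a filter on low counts all 3 lost it (edgeR adjusted p 0.0664 to 0.0738), and with library size alone Erap1 (0.101) and Tap2 (0.192) did.

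H2-Ke6, at chr17:34026033-34028060, had 26.03, 30.8, 28.3 and 22.4 CPM in TAC control and 15.1, 19.7, 18.1 and 15.9 CPM in METTL5-cKO libraries. The groups did not overlap (log2 fold change -0.64, SE 0.1204, edgeR adjusted p = 0.0146), and the call held under all 13 alternatives. The exons of Gm20427 overlap it on the same strand and share 70.5% of its 50-base words, so the count may include that transcript.

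**Figure D3:**
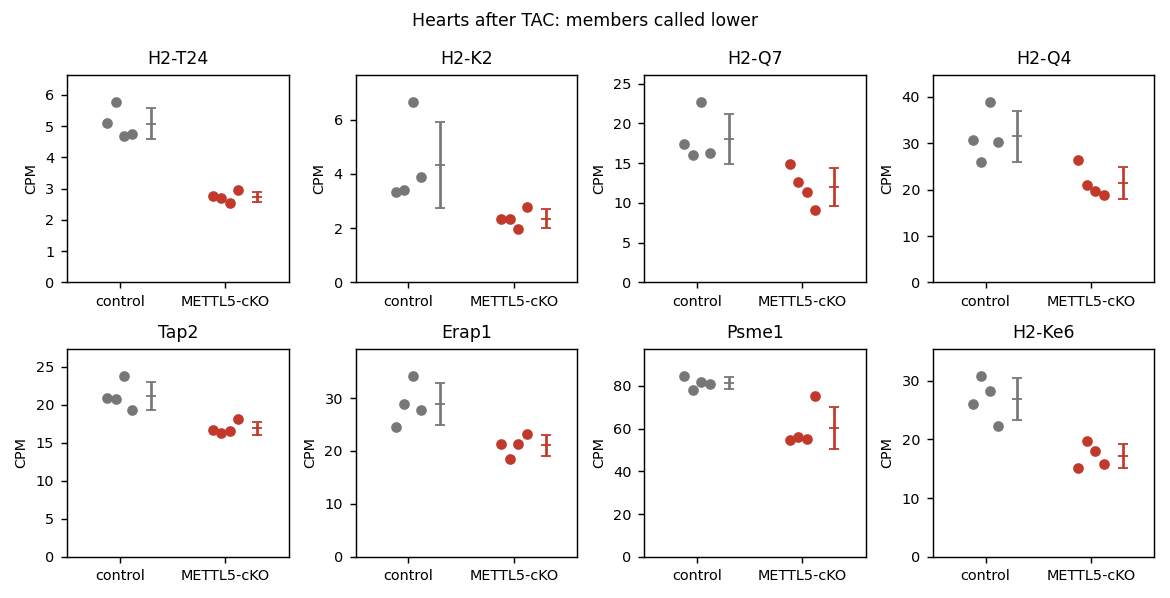
CPM in each TAC library for the 8 members with an adjusted p under 0.05, with control in grey and METTL5-cKO in red, each point being 1 library and each bar the mean ± SD (n = 4). H2-T24 has tight groups that do not overlap, and the groups of H2-Ke6 are wider and do not overlap either. H2-K2 has 1 control library at 6.66 CPM and Psme1 has 1 METTL5-cKO library at 75.1 CPM.

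Class II genes after TAC turned on control library 3. The summed class II level was 92.0, 96.2, 160 and 94.3 CPM in control and 115, 78.1, 72.8 and 102 CPM in METTL5-cKO libraries. All 7 tested genes had a log2 fold change below 0, with a median of -0.28, which shrank to -0.03 without control library 3. H2-Aa had 35.1, 33.4, 58.1 and 34.3 CPM against 42.4, 28.7, 28.6 and 36.3 CPM (log2 fold change -0.24, SE 0.201, edgeR adjusted p = 0.449), and Cd74 had 96.2, 103, 164 and 99.0 CPM against 113, 79.8, 71.0 and 106 CPM (-0.32, SE 0.204, edgeR adjusted p = 0.326). In both genes control library 3 stood above all others. H2-Ab1 had 27.8, 32.1, 52.6 and 29.4 CPM against 36.2, 24.4, 22.03 and 34.7 CPM (-0.28, SE 0.231), and H2-Eb1 had 19.5, 22.5, 38.7 and 22.4 CPM against 25.8, 17.8, 16.5 and 23.8 CPM (-0.30, SE 0.227). Ciita had 1.44, 0.973, 1.51 and 0.728 CPM against 1.01, 0.684, 1.29 and 0.599 CPM (-0.35, SE 0.307). These groups overlapped, with edgeR adjusted p between 0.406 and 0.473. The 0 called of 7 genes also had 0 at an unadjusted p under 0.05.

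Some cell type markers were called between the TAC groups, beside 12.7% of all genes called in either direction and 6.10% called lower. Of the endothelial markers 5 of 6 fell (summed level 585 to 698 CPM in control and 407 to 537 CPM in METTL5-cKO libraries, median log2 fold change -0.52), and 4 of 5 fibroblast markers rose (401 to 488 and 566 to 1251 CPM). Of the macrophage markers 2 of 9 rose (140 to 193 and 185 to 260 CPM), 1 of 6 cardiomyocyte markers fell (24260 to 28380 and 18000 to 23480 CPM) and 1 of 5 smooth muscle and pericyte markers rose. No marker of dendritic cells, B cells, T and natural killer cells or neutrophils was called, and summed B cell markers were low (3.30 to 4.66 CPM in control and 0.768 to 3.03 CPM in METTL5-cKO libraries). None of the endothelial, fibroblast, macrophage or cardiomyocyte markers was at 0 in all TAC libraries. The part of these markers in the lower class I values was not tested.

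The other pathway lists had calls in both directions after TAC, beside 12.7% of all genes called in either direction and 6.10% called lower. Of the interferon signaling genes 4 of 15 tested fell and 1 rose, with Irf1 at a log2 fold change of -0.63 (edgeR adjusted p = 0.00716), Irf9 at -0.40 (0.0207) and Ifngr1 at 0.38 (0.0211), and the ligand gene Ifng was too low to test. Of the class II processing genes outside the members 3 of 9 rose, namely the lysosomal proteases Ctsd (0.50, edgeR adjusted p = 0.0196), Ctss (0.70, 0.0231) and Lgmn (0.49, 0.0457), while the class II chains themselves were not called. Of the genes of T cell co-stimulation and inhibition, Cd274 fell (-0.93, edgeR adjusted p = 0.0136) and Cd86 rose (0.76, 0.0474). Among promoter-binding factors 1 of 9 fell, Creb1 (-0.33, edgeR adjusted p = 0.0307), and 0 of 7 constitutive proteasome genes and 0 of 10 other class I assembly genes were called.

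Whether the genotype difference itself differed between TAC and unstressed hearts was tested as an interaction over both experiments. These were separate experiments with their own controls, so TAC and experiment cannot be told apart in this test. Of the 38 members 0 were called by edgeR, against 0.00586% of all genes (1 of 17070), and 2 members, Psme1 and H2-Ke6, had an unadjusted p under 0.05, against 11.8% of all genes. Psme1 had a TAC effect 0.46 lower on the log2 scale than its 3-month effect (value -0.46, SE 0.134, edgeR adjusted p = 0.187), and H2-Ke6 one of -0.62 (SE 0.190, edgeR adjusted p = 0.208). For H2-T24 the difference was -0.31 (SE 0.340, edgeR adjusted p = 0.781). Without TAC METTL5-cKO library 4, Psme1 passed the test (-0.59, edgeR adjusted p = 0.00481), and so did 679 of all 17353 genes then tested. For no class I gene was the genotype difference shown to differ between TAC and unstressed hearts.

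In the NRVMs the question was how METTL5 overexpression changes PE-stimulated cardiomyocytes in culture, and most class I and processing members tested were higher with AdMETTL5. Of the 18 RT1 class I genes tested 17 rose and 15 of these passed a log2 fold change of 1, with a median of 1.54 (all genes 0.00). Of 12 processing genes tested 11 rose, from Psme1 at 0.22 to the transactivator Nlrc5 at 3.33, and Cd74 fell. Of 3 class II genes tested RT1-DMb fell and 2 were not called. The background in this experiment was wide, as 52.8% of all genes were called, 27.1% higher and 25.7% lower, and 4.05% were called higher with a log2 fold change over 1.

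The summed class I level was 161, 154, 134 and 135 CPM with AdGFP and 454, 445, 501 and 360 CPM with AdMETTL5. The groups were apart, and AdMETTL5 library 4, the lowest of its group for 16 of the 18 class I genes, was still above every AdGFP library. RT1-S3 (ENSRNOG00000000777) had 28.3, 27.7, 23.6 and 24.7 CPM with AdGFP and 74.6, 75.6, 88.5 and 62.3 CPM with AdMETTL5 (log2 fold change 1.53, SE 0.0991, edgeR adjusted p = 1.90e-07). RT1-CE5 had 17.7, 16.5, 16.6 and 15.9 CPM against 40.3, 44.9, 43.1 and 36.8 CPM (1.31, SE 0.0705, edgeR adjusted p = 5.41e-08). RT1-T24-4 had 9.49, 9.39, 8.29 and 7.91 CPM against 32.1, 31.7, 34.7 and 25.8 CPM (1.82, SE 0.100, edgeR adjusted p = 5.89e-08). Within each group the libraries of these genes were close, and no value of 1 group reached the other.

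RT1-T24-3 had the largest class I fold, with 2.91, 3.85, 2.98 and 3.55 CPM against 24.4, 23.8, 29.3 and 13.9 CPM, a 6.86-fold higher level (log2 fold change 2.78, SE 0.215, edgeR adjusted p = 7.70e-07). RT1-A2, of the classical A region, had 18.9, 19.0, 15.2 and 15.4 CPM against 54.0, 56.4, 66.8 and 42.3 CPM, or 3.20-fold (1.68, SE 0.129, edgeR adjusted p = 7.06e-07). In both genes AdMETTL5 library 3 was the highest and library 4 the lowest of its group. RT1-CE1 had 3.50, 4.21, 5.25 and 4.01 CPM with AdGFP and 15.8, 15.5, 18.8 and 13.8 CPM with AdMETTL5 (1.91, SE 0.130), RT1-CE7 had 10.02, 8.42, 6.77 and 8.02 CPM against 30.4, 29.2, 34.3 and 23.3 CPM (1.82, SE 0.131), and RT1-CE10 had 6.94, 7.04, 7.35 and 6.69 CPM against 25.6, 22.8, 25.7 and 17.9 CPM (1.71, SE 0.115). RT1-T24-1 had 3.50, 3.43, 2.45 and 3.55 CPM against 10.1, 10.0, 11.5 and 8.65 CPM (1.63, SE 0.131), and RT1-N3 had 7.59, 6.86, 7.18 and 6.11 CPM against 16.5, 17.6, 18.1 and 15.96 CPM (1.30, SE 0.0847). None of these groups overlapped, and each of these 5 genes had an edgeR adjusted p between 1.95e-07 and 1.05e-06.

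The other class I genes that rose were RT1-S2 (log2 fold change 2.03), RT1-CE4 (1.54), RT1-CE3 (1.54), RT1-A1 (1.5027), RT1-M6-1 (1.1492), RT1-N2 (0.99) and RT1-M3-1 (0.52), with edgeR adjusted p between 1.24e-06 and 0.00458. RT1-M6-2 did not pass, with 0.652, 1.14, 0.817 and 0.523 CPM against 0.877, 0, 0 and 1.08 CPM (-0.66, SE 0.709, edgeR adjusted p = 0.464). The 3 class I genes not tested had 0 counts in all 8 libraries. The groups did not overlap in 17 of the 18 genes tested, against 25.2% of all genes apart in the higher direction. Summing all class I counts gave a log2 fold change of 1.59 (edgeR adjusted p = 1.02e-07). How reads were divided among these genes does not alter the sum. Reads dropped, counted more than once or placed in other genes could alter it, and their treatment is not given in the sources.

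The partners of class I rose with it. Tap1 had 30.4, 22.9, 21.1 and 24.5 CPM with AdGFP and 107, 110, 121 and 89.0 CPM with AdMETTL5, a 4.31-fold rise (log2 fold change 2.11, SE 0.112, edgeR adjusted p = 4.83e-08). Tapbp had 31.7, 25.2, 27.4 and 27.6 CPM against 89.5, 84.3, 99.3 and 74.3 CPM (1.63, SE 0.0912, edgeR adjusted p = 6.29e-08). Psmb9 had 5.87, 5.05, 4.03 and 4.07 CPM against 19.0, 20.6, 19.6 and 15.7 CPM (1.98, SE 0.127, edgeR adjusted p = 1.75e-07). No group overlapped another in these 3 genes. B2m, the light chain, had 375, 370, 348 and 326 CPM against 792, 720, 794 and 557 CPM, which is 2.02-fold (1.01, SE 0.0987, edgeR adjusted p = 5.04e-06).

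Nlrc5, the class I transactivator, had the largest fold change of all rat members at low counts. Its counts were 9, 0, 9 and 15 with AdGFP and 56, 69, 122 and 54 with AdMETTL5, or 0.534, 0, 0.525 and 0.872 CPM against 3.78, 4.63, 8.01 and 3.43 CPM. Every AdMETTL5 library was above every AdGFP library (log2 fold change 3.33, SE 0.451, edgeR adjusted p = 6.70e-05), and the change ranged from 2.93 to 3.77 over the alternatives. Psmb8 had 4.33, 3.91, 3.91 and 3.95 CPM against 12.9, 13.3, 16.7 and 9.79 CPM (1.71, SE 0.150, edgeR adjusted p = 2.15e-06), and Tap2 had 4.51, 3.79, 4.09 and 4.30 CPM against 8.37, 8.86, 10.4 and 7.89 CPM (1.09, SE 0.111, edgeR adjusted p = 7.39e-06). Neither gene had overlapping groups.

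The remaining peptide supply genes rose by less. Psmb10 had 12.8, 11.01, 11.4 and 12.6 CPM against 21.9, 21.0, 19.0 and 18.5 CPM (log2 fold change 0.75, SE 0.0795, edgeR adjusted p = 9.89e-06). Psme2 had 39.5, 39.95, 39.4 and 38.3 CPM against 57.1, 55.3, 61.2 and 47.6 CPM (0.49, SE 0.0694, edgeR adjusted p = 9.11e-05), and Erap1 had 43.1, 43.9, 45.8 and 42.1 CPM against 53.0, 55.6, 60.6 and 53.5 CPM (0.35, SE 0.0554, edgeR adjusted p = 0.000227). In Psme1 the groups overlapped, with 121, 113, 111 and 110 CPM against 133, 136, 141 and 118 CPM (0.22, SE 0.0586, edgeR adjusted p = 0.00767).

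**Figure D4:**
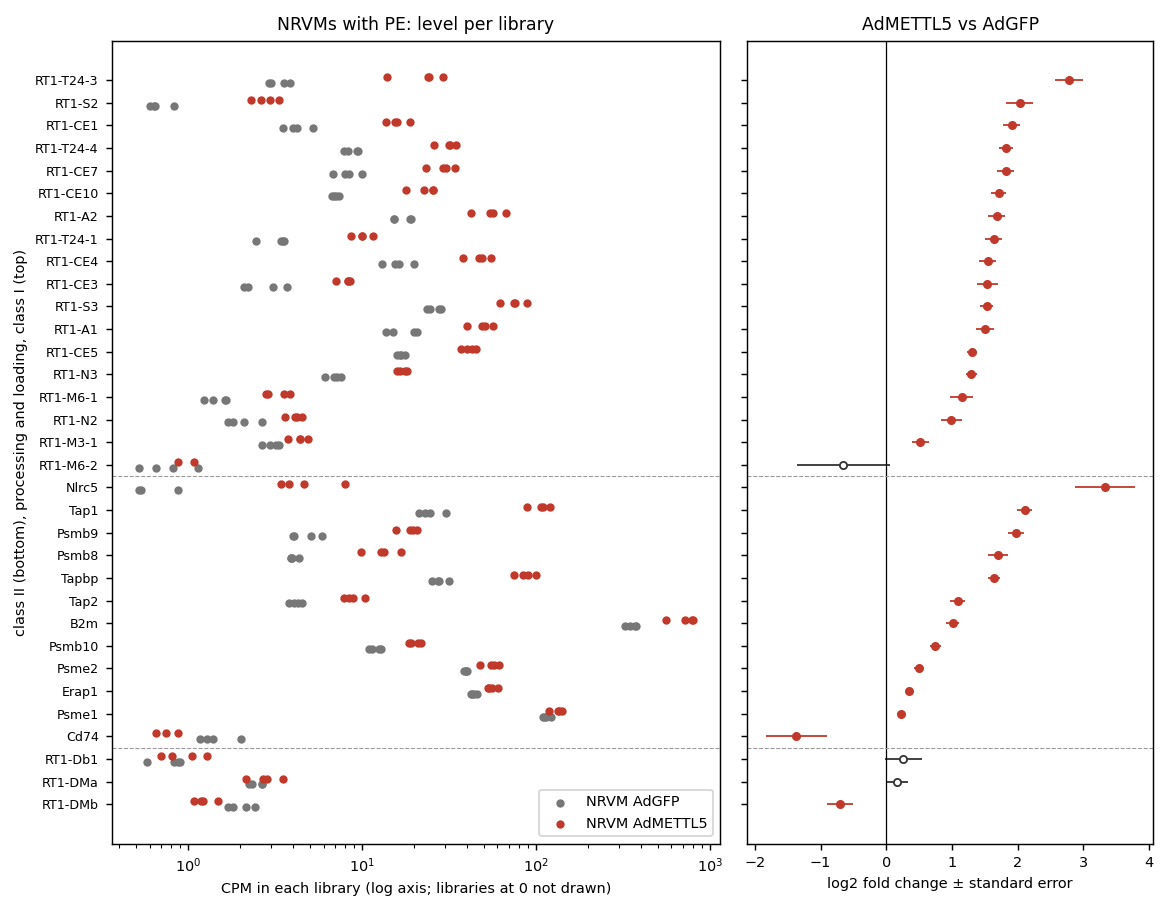
CPM of the 33 rat members tested in each NRVM library on a log axis (left, AdGFP in grey and AdMETTL5 in red, libraries at 0 not drawn) and their log2 fold change with its standard error (right), with class II genes at the bottom, processing genes in the middle and class I genes at the top; filled red points have an adjusted p under 0.05. The red points lie right of the grey ones in 17 class I genes, whereas Cd74 and RT1-DMb lie left of them.

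The class II side was near the floor in NRVMs. RT1-Ba had 0 counts in all 8 libraries, RT1-Da had 6, 1, 0 and 3 counts with AdGFP and 1, 1, 0 and 1 with AdMETTL5, and Ciita had 8, 3, 0 and 4 counts against 8, 8, 6 and 0, so none of these could be tested. Of the 10 RT1 class II genes 5 had at most 3 counts in every library. RT1-DMb had 2.43, 1.81, 2.16 and 1.69 CPM with AdGFP and 1.21, 1.48, 1.18 and 1.08 CPM with AdMETTL5 and fell without overlap (log2 fold change -0.70, SE 0.196, edgeR adjusted p = 0.00927). Its partner RT1-DMa had 2.67, 2.23, 2.33 and 2.67 CPM against 2.83, 3.49, 2.69 and 2.16 CPM (0.17, SE 0.164, edgeR adjusted p = 0.409), and RT1-Db1 a log2 fold change of 0.26 (SE 0.278, edgeR adjusted p = 0.456). Cd74 had 34, 23, 22 and 20 counts with AdGFP and 11, 13, 10 and 0 with AdMETTL5, or 2.02, 1.38, 1.28 and 1.16 CPM against 0.742, 0.873, 0.656 and 0 CPM. It fell (log2 fold change -1.37, SE 0.469, edgeR adjusted p = 0.0273), and the call was lost without AdGFP library 1 (-1.17, edgeR adjusted p = 0.0826), without AdMETTL5 library 3 (-1.45, 0.0547) and without a filter on low counts (-1.37, 0.0737). Summed class II counts gave -0.16 (edgeR adjusted p = 0.322).

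Cell type markers had calls in both directions in these cultures, beside 27.1% of all genes called higher and 25.7% called lower. All 6 cardiomyocyte markers fell with AdMETTL5 (summed level 14230 to 16250 CPM with AdGFP and 6772 to 7421 CPM with AdMETTL5), and 4 of 5 fibroblast markers fell (8573 to 9072 and 6972 to 7696 CPM). Of the macrophage markers 2 of 4 tested fell (61.3 to 72.0 and 48.5 to 59.4 CPM). Cd4, the only gene tested of the T and natural killer cell list, also fell, and which cells it came from was not tested. B cell markers were at most 0.233 CPM in sum, with 4 of 5 genes at 0 in all libraries, and 5 of 7 T and natural killer cell markers were at 0. Of endothelial markers 1 of 4 tested rose (38.0 to 41.4 and 50.5 to 55.1 CPM), of smooth muscle and pericyte markers 2 of 5 rose, of dendritic cell markers 1 of 2 tested rose, and no neutrophil marker could be tested. The part of the cardiomyocyte markers, which moved with the class I genes in the opposite direction, was not tested.

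Interferon signaling genes moved with class I in NRVMs. Of 15 tested 9 rose and 1 fell, beside 27.1% and 25.7% of all genes, with summed levels of 765 to 775 CPM with AdGFP and 1218 to 1365 CPM with AdMETTL5. Among those that rose were Stat2 (47.4 ± 4.68 against 163 ± 14.7 CPM, log2 fold change 1.78, edgeR adjusted p = 1.46e-08) and Irf7 (10.7 ± 3.97 against 199 ± 38.2 CPM, 4.22, edgeR adjusted p = 2.91e-08; SD, n = 4). Ifng had 0 counts in all 8 libraries. All 4 tested genes of T cell co-stimulation and inhibition rose, among them Cd274 (1.03, edgeR adjusted p = 0.000527), Cd40 (0.55, 0.000922) and Cd80 (0.69, 0.00300). The part of the interferon signaling genes in the class I rise was not tested.

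The other pathway lists had calls in both directions, beside 27.1% of all genes called higher and 25.7% called lower. Of 6 constitutive proteasome genes tested 2 rose and 1 fell, with Psme4 at a log2 fold change of 0.64 and Psmb6, the standard subunit that Psmb9 replaces, at -0.23 (edgeR adjusted p = 0.00652). Of 10 other class I assembly genes 4 rose and 2 fell, with Tapbpl, a tapasin homologue, at 0.65 (edgeR adjusted p = 2.98e-05). Among promoter-binding factors 4 of 9 rose, among them Crebbp by 0.66, the NF-Y subunit gene Nfyb by 0.28 and Rfx5 by 0.37, and of 8 other class II processing genes tested 2 rose (Cd1d1 and Ifi30) and 1 fell (Marchf8).

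On the log2 scale the class I medians of the mouse experiments were thus -0.29, -0.32 and -0.32 in the order described, beside 1.54 in the rat cells. Those of class II were 0.32, 0.18 and -0.28, beside 0.17 in the rat cells. The rat class II median rests on 3 tested genes of low counts, and the summed rat class II counts gave -0.16. The mouse libraries are labelled for METTL5 knockout in hearts and the rat libraries for a METTL5 virus in cultured cells, so species, tissue, stimulus and the labelled kind of METTL5 change differ together and cannot be told apart.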

How the data were processed

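Tables of estimated counts per gene for 4 experiments were taken as deposited. Per the submitters' processing notes and methods, the authors aligned reads with HISAT2 2.0.4 to GRCm38 or Rnor_6.0, made counts with StringTie 2.1.4 and compared groups with DESeq2 1.4.5. The deposited estimated counts are whole numbers. The annotation release, strand setting and treatment of reads with several matches are not given in the sources used here. Outside the 1-month table, columns name the group but not the labelled replicate, so library numbers there are names only.

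Counts were tested within each table with edgeR 4.0.16 in R 4.3.3 (quasi-likelihood, TMM, filterByExpr with a minimum count of 10 and a minimum total of 15), with Benjamini-Hochberg adjustment over all genes tested. The interaction was fitted in the same way on the 3-month and TAC libraries joined. Called means an adjusted p under 0.05. Tests planned for raw counts were applied to these estimated counts. CPM use TMM-scaled library sizes. The fit was also run on simulated counts with the same dispersion for every gene of a table and large changes in well-expressed genes only. That run does not test the smaller changes or low counts described here. Single genes also had an exact permutation test (smallest p 0.0286). DESeq2 1.42.0, other scalings and filters, summed class counts, a replicate block and leaving out each library were alternatives. Values in every library were given for H2-K1, H2-D1, B2m, H2-Aa, H2-Ab1, H2-Eb1, Cd74, Nlrc5 and Ciita of the mouse, for B2m, Cd74, Nlrc5, Ciita, RT1-Da, RT1-Ba and the class I gene of highest mean CPM (RT1-S3) of the rat, and for called members, at most the 10 of smallest adjusted p per class. From other lists, up to 3 genes of smallest adjusted p were named, except 1 that is not reported here. Psme1, Erap1, H2-DMa, Psmb10, RT1-M6-2 and RT1-DMa, where not called, were added after their values were seen. The members, marker lists and pathway lists were chosen with earlier results of these data known. In the 1-month table, replicate numbers did not pair the samples.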

Additional observations from a re-analysis of the deposited data

Results flagged for a closer look

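In 11 of the 130 pairs of a member and a group of 4 libraries, a single library stood further from the other three than Dixon's critical value at the 95% level allows, where about 1 in 20 does so by chance. TAC control library 3 was high in H2-Aa (58.1 CPM, the others 33.4 to 35.1), H2-Eb1 (38.7 CPM, the others 19.5 to 22.5), Cd74 (164 CPM, the others 96.2 to 103) and H2-K2 (6.66 CPM, the others 3.32 to 3.88). In METTL5-cKO hearts, library 4 was high in H2-D1 at 3 months (145 CPM, the others 79.8 to 90.1) and library 4 was high in Psme1 after TAC (75.1 CPM, the others 54.8 to 56.1). Control library 2 was low in H2-Eb1 at 1 month (9.13 CPM, the others 22.9 to 23.9) and control library 2 was high in B2m at 3 months (296 CPM, the others 222 to 228). In NRVMs, RT1-T24-1 was low in AdGFP library 3 (2.45 CPM, the others 3.43 to 3.55), Psmb8 was high in AdGFP library 1 (4.33 CPM, the others 3.91 to 3.95) and RT1-CE3 was low in AdMETTL5 library 4 (7.06 CPM, the others 8.256 to 8.501).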

How the results depend on the processing

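The count of 17 class I genes higher in NRVMs was 15 with a log2 fold change over 1 also required and stayed 17 under every other alternative, and the counts of 0 at 1 and 3 months stayed 0 under every alternative run. After TAC, the 4 class I calls became 1 with library size alone, 1 without a filter on low counts and 0 with a log2 fold change over 1 also required, and ran from 1 to 4 when each library was left out. The 3 processing calls became 0 without the filter and 0 with the fold requirement, and ran from 0 to 4. Library size alone moved the median of all genes to 0.14 after TAC and 0.13 in NRVMs, where the class I medians, added as alternatives after the data were seen, were -0.18 and 1.68, and Psmb10 was then called higher after TAC, which left 1 of 2 processing calls lower. In NRVMs the class II call became 0 with the fold requirement, and the class II median of 0.17 became -0.16 with counts summed. The interaction count ran from 0 to 1. Leaving out single libraries turned signs of genes that were not called, at 1 month in B2m (-0.22 to 0.044), H2-Aa (-0.20 to 0.59), H2-Ab1 (-0.29 to 0.49), H2-Eb1 (-0.21 to 0.60) and Cd74 (-0.11 to 0.57), and at 3 months in H2-Ab1 (-0.022 to 0.28) and H2-Eb1 (-0.012 to 0.44). The cause of these changes was not tested. With the replicate block at 1 month the counts stayed 0 (H2-K1 -0.25, edgeR adjusted p = 0.923), and same-numbered samples had correlated deviations from -0.107 to 0.239. No paired analysis was possible in the other experiments because their columns carry no replicate numbers of the labels. Of 330 values of single members under alternatives other than leaving out a library, 318 kept their direction and side of the threshold and 12 lost their call.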
